A study of Homo sapiens with 18 samples.

Results

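Messenger RNA of A549 cells with a stable knockdown (KD) of S100A16 was compared with that of wild-type (WT) A549 cells, both untreated. The comparison rested on 6 of the 18 libraries of the series: 3 biological replicates of the S100A16 KD and 3 of WT. A549 is an established human lung adenocarcinoma line. Its tumour type arises from the alveolar epithelium. The S100A16 KD cells carried the stable knockdown and received no hydrogen peroxide (H2O2). The WT cells carried no knockdown and received no H2O2. Other groups of the series, which also entered the fit that estimates the spread, were S100A16 KD and WT cells given 100 µM H2O2 for 2 h, and untreated stable KDs of hnRNPM and MagoHB, with 3 libraries each. All groups share the A549 background. No line that carried only a vector is among the groups, and the sources used here do not say how the knockdown was made, so the S100A16 KD and WT also differ in having gone through a stable selection or not. Nothing in the sources says whether the S100A16 KD is 1 clone or a pool.

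S100A16 is a small protein of the S100 family, whose members bind calcium through EF-hand loops and then bind and alter other proteins. Unlike most S100 proteins it is found in many tissues. Epithelial tumours, lung adenocarcinoma among them, often express it. The family's genes lie mostly in a cluster on chromosome 1.

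Totals were 39523692, 45245521 and 43372955 counts in the S100A16 KD libraries and 48016017, 48482897 and 47383930 in WT. Levels are given as CPM, counts scaled to a common library total and then by TMM, which sets library factors so that most genes stay level. S100A16 KD library 1 stood apart: it held 873.7 CPM of short structured RNAs, against 120.6 and 132.7 CPM in S100A16 KD libraries 2 and 3 and 87.8 to 90.6 CPM in WT. In a chi-square comparison of gene counts, divided by its degrees of freedom, library 1 scored 30 and 31.2 with S100A16 KD libraries 2 and 3, which scored 4.13 with each other, and the WT pairs scored 3.09 to 4.5. Leaving it out lowered the number of genes called by less than 1.5 times. Mitochondrial genes held 7.56% to 7.86% of counts in the S100A16 KD and 9.84% to 10.3% in WT. The 10 epithelial markers of A549 summed to between 7810 and 8300 CPM in the S100A16 KD and between 5760 and 6180 CPM in WT, led by the keratins KRT8 and KRT18. Of 24 alveolar and lung lineage markers, 12 were under 1 CPM in all 6 libraries, and the surfactant gene SFTPA2 and the secretoglobin gene SCGB3A2 were at 0. Markers of fibroblasts summed to 51.6 to 59.7 CPM in the S100A16 KD and 87.6 to 118 CPM in WT, with 6 of 10 under 1 CPM. Most of that sum was PDGFRA, COL1A1 and COL3A1, and of the 10 markers 1 rose and 2 fell. Leukocyte markers summed to 137 to 146 CPM in the S100A16 KD and 95.3 to 106 CPM in WT, nearly all of it CD68, with 9 of 12 under 1 CPM. Endothelial markers summed to 21.8 to 22.8 CPM in the S100A16 KD and 30.8 to 37.6 CPM in WT, with 7 of 9 under 1 CPM. In bulk RNA, fewer cells of a kind and less RNA per cell cannot be told apart.

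The knockdown lowered its target in every library. S100A16 stood at 9.01, 8.43 and 7.85 CPM in the S100A16 KD, against 117, 119.9 and 119 CPM in WT (log2 fold change -3.81, SE 0.12, adjusted p = 6.82e-15). The groups did not overlap. Per exon length the level was 5.34 ± 0.305 RPKM in the S100A16 KD and 63.7 ± 1.39 RPKM in WT (SD, n = 3 each). RPKM values here are scaled by total counts alone, without TMM, so their ratios between groups differ from those in CPM. Of 21 genes on the S100 list, 13 were tested, 3 fell and 0 rose, S100A16 among those that fell; over all genes 24.8% fell and 27.6% rose. By total counts alone 3 of the 13 fell and 3 rose. S100A6, called calcyclin, stood at 451, 437 and 434 CPM in the S100A16 KD and 795, 818 and 808 CPM in WT (log2 -0.87, adjusted p = 3.19e-11). S100A10, the partner of annexin A2 at membranes, averaged 259 CPM in the S100A16 KD and 391.8 CPM in WT (log2 -0.60, adjusted p = 1.14e-07). Per exon length, S100A6 stood at 489 ± 4.11 RPKM in the S100A16 KD and 760.2 ± 14.1 RPKM in WT, and S100A10 at 181 ± 10.5 RPKM in the S100A16 KD and 232 ± 9.09 RPKM in WT (SD, n = 3 each). In both genes all S100A16 KD libraries lay below all WT libraries.

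The change was broad. Of 22382 genes tested, 11713 were called at an adjusted p under 0.05 (52.3%), of which 6168 were higher (27.6%) and 5545 lower (24.8%) in the S100A16 KD. At least 2-fold changes were fewer and lay mostly upward, with 2458 higher (11.0%) and 872 lower (3.90%). All 3 S100A16 KD libraries lay above all 3 WT libraries for 7658 genes (34.2%) and below them for 6687 (29.9%). The split depends on the scaling: with total counts alone, all log2 fold changes moved up by 0.24, and 9207 genes were called higher and 3231 lower, so that higher genes made up 74% of the calls in place of 52.7%. Small changes on the log2 scale are therefore relative to the bulk of genes, and where total counts alone turned a list's median or its balance of calls, those values stand beside the list. With so broad a background, a list whose share of calls is near these shares says nothing particular.

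The direction went with expression level. Of 6638 genes with a mean above 0 and up to 1 CPM, 19% rose and 4.99% fell. Of 4315 genes up to 5 CPM, 33.9% rose and 16.3% fell, and of 2303 genes up to 10 CPM, 35.2% rose and 25.8% fell. Between 10 and 50 CPM the shares were 32.8% and 36.8%. Among 1831 genes above 100 CPM, 19% rose and 59.3% fell, with a median log2 fold change of -0.28, or -0.04 by total counts alone. With TMM scaling, abundant genes thus fell more often than they rose and scarce genes rose more often than they fell. By total counts alone 637 genes above 100 CPM were higher and 743 lower. Between 50 and 100 CPM the balance turned, from 26.3% higher and 45.5% lower to 749 genes higher and 444 lower. Between 10 and 50 CPM, total counts alone gave 2844 higher and 1174 lower.

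**Figure D1:**
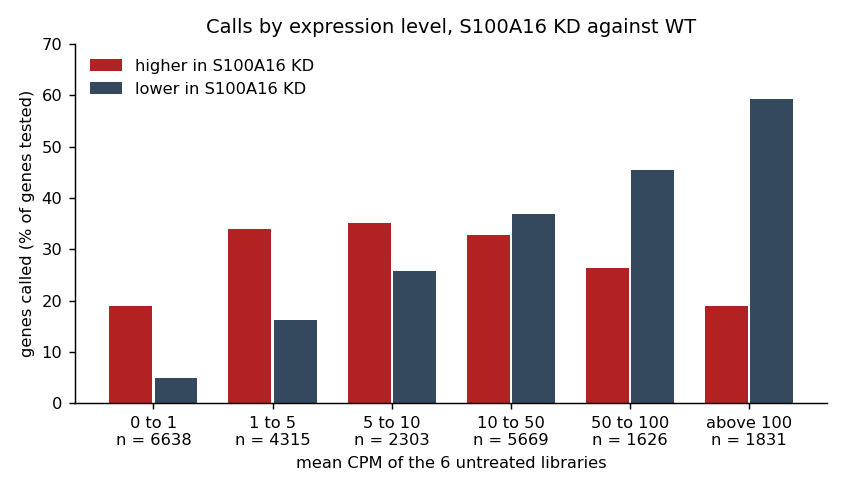
Share of tested genes called higher (red) or lower (dark) in the untreated S100A16 KD, in percent, by the mean CPM of the 6 untreated libraries, with the number of genes in each band. Higher calls outnumber lower ones up to 10 CPM, and above 100 CPM 59.3% were lower and 19% higher.

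Messenger RNAs with the largest rises were scarce in WT. TNFSF14, also known as LIGHT, a TNF-family cytokine that signals through the lymphotoxin beta receptor, had 58.4, 65.7 and 65.3 CPM in the S100A16 KD and 1.05, 0.864 and 0.683 CPM in WT (72.8-fold, log2 6.18, SE 0.56, adjusted p = 1.03e-06). NMNAT2, a cytosolic enzyme of NAD synthesis best known from axons, had 5.37, 5.59 and 6.18 CPM in the S100A16 KD and 0.275, 0.182 and 0.319 CPM in WT (log2 4.45, adjusted p = 1.59e-09). OLR1, a scavenger receptor for oxidised lipoprotein, had 14.8, 16.4 and 16.1 CPM in the S100A16 KD and 0.962, 1.21 and 0.865 CPM in WT (log2 3.96, adjusted p = 7.43e-08). In each of these genes the lowest S100A16 KD library lay more than 10-fold above the highest WT library.

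Other genes among the 15 highest fold changes, beside interferon genes given further on, were the following. KLHDC7A, a kelch repeat gene, averaged 10.3 CPM in the S100A16 KD and 0.942 CPM in WT (log2 3.45), and STMN3, a stathmin that binds tubulin, 27.3 against 2.68 CPM (log2 3.34). The septin gene SEPT4 averaged 5.22 CPM in the S100A16 KD and 0.464 CPM in WT (log2 3.49), with an overlapping antisense gene. FBXW10, an F-box gene of ubiquitin ligases, averaged 9.07 CPM in the S100A16 KD and 0.904 CPM in WT (log2 3.32), and the sulfotransferase SULT1C2 5.76 against 0.578 CPM (log2 3.31). GALNT5, which starts mucin-type sugar chains, averaged 14.7 CPM in the S100A16 KD and 1.75 CPM in WT (log2 3.07). C14orf105 averaged 24.4 CPM in the S100A16 KD and 2.39 CPM in WT (log2 3.35). Adjusted p ran from 3.4e-14 for STMN3 to 3.51e-06 for SULT1C2 among these genes.

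By difference in CPM, KRT8, an epithelial keratin, was among the largest rises. It stood at 5155, 5128 and 5484 CPM in the S100A16 KD and 3615, 3570 and 3230 CPM in WT (log2 0.60, adjusted p = 1.35e-08), and its partner KRT18, whose exons overlap it in the annotation, at 2076 against 1388 CPM on average (log2 0.58). HSP90B1, the endoplasmic reticulum form of HSP90, averaged 5557 CPM in the S100A16 KD and 4164 CPM in WT (log2 0.42). MYH9, the non-muscle myosin IIA heavy chain, averaged 2672 CPM in the S100A16 KD and 1852 CPM in WT (log2 0.53), and moesin, MSN, which links actin to the membrane, 1784 against 1175 CPM (log2 0.60). APLP2, a homologue of the amyloid precursor protein, averaged 1571 CPM in the S100A16 KD and 996 CPM in WT (log2 0.66).

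**Figure D2:**
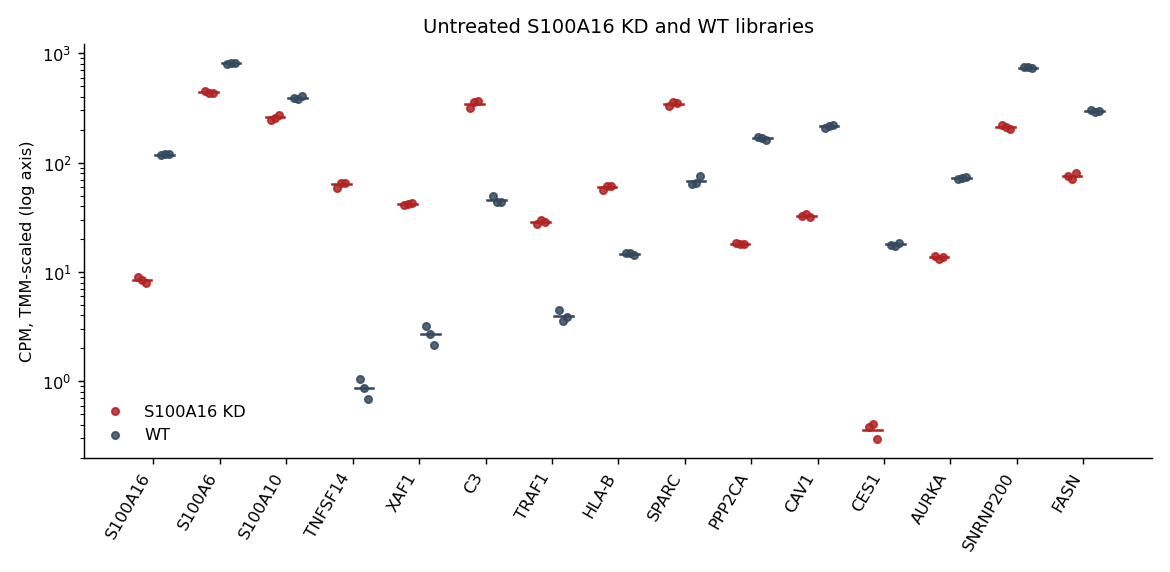
CPM (log axis) of 15 genes in the 3 S100A16 KD libraries (red, left of each pair) and the 3 WT libraries (dark), untreated; short lines mark the means. No gene shown has overlapping groups: the 3 S100 genes at the left and the 6 genes from PPP2CA to FASN are lower in the S100A16 KD, and the 6 genes from TNFSF14 to SPARC are higher.

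Genes that interferon induces rose almost throughout. Interferons signal through transcription factors that bind interferon-stimulated response elements in promoters and turn on antiviral sensors and effectors. Of 66 genes on the list, 65 were tested, 61 rose and 0 fell, 45 of them at least 2-fold, with a median log2 fold change of 1.45 against 0.06 over all genes tested. By total counts alone 64 rose and 0 fell.

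Among the sensors of viral RNA, DDX58, which encodes RIG-I, stood at 138, 143 and 147 CPM in the S100A16 KD and 35.3, 31.2 and 27.2 CPM in WT (log2 2.19, SE 0.20, adjusted p = 5.02e-07). IFIH1, which encodes MDA5, averaged 116 CPM in the S100A16 KD and 28.8 CPM in WT (log2 2.01, adjusted p = 1.23e-08). PARP9, which takes part in interferon responses, averaged 104.8 CPM in the S100A16 KD and 30.1 CPM in WT (log2 1.80, adjusted p = 1.26e-12).

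Effectors included larger rises. XAF1, a pro-apoptotic protein that antagonises XIAP, stood at 41.1, 41.8 and 42.4 CPM in the S100A16 KD and 3.19, 2.73 and 2.16 CPM in WT (15.5-fold, log2 3.95, adjusted p = 1.07e-07). RSAD2, which encodes viperin, averaged 27.6 CPM in the S100A16 KD and 2.46 CPM in WT (log2 3.49, adjusted p = 2.28e-05); its exons overlap those of CMPK2 in the annotation. GBP3, a guanylate-binding GTPase with close relatives among which reads can be split, averaged 77.3 CPM in the S100A16 KD and 5.69 CPM in WT (log2 3.76, adjusted p = 5.17e-06). IFIT3, which binds foreign RNA with its IFIT partners, had 336, 346 and 369.9 CPM in the S100A16 KD and 104, 101 and 90.6 CPM in WT (log2 1.83, adjusted p = 0.000239). IFI44L averaged 16.9 CPM in the S100A16 KD and 2.13 CPM in WT (log2 2.99, adjusted p = 1.11e-11). For all of these the S100A16 KD libraries lay close together and above every WT library.

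Promoters of this list often held the letters of the response element. The element's letters, GAAA, any 2 bases and GAAA again, were searched on both strands of the 250 bases before each RefSeq gene start (GRCh38.p14). They were in 27 of 51 promoters of the list that matched (52.9%) and in 839 of 27305 promoters in all (3.07%). They were in 1 of 55 promoters of the mitosis genes described further on. The 3 windows shown are those of genes that rose by 2.99 (IFI44L), 2.44 (GBP1) and 2.20 (DDX60, an RNA helicase) on the log2 scale. They span chr1:78620330-78620429 on the plus strand, chr1:89065281-89065380 on the minus strand and chr4:168318753-168318852 on the minus strand. Each is written 5′ to 3′ along its gene's strand, with matches on either strand in capitals. A match describes the letters and is not a measured site. The list's share counts its tested members whatever their change, so it says nothing about the rise.
IFI44L: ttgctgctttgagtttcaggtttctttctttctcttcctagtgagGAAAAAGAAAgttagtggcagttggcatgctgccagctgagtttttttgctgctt
GBP1: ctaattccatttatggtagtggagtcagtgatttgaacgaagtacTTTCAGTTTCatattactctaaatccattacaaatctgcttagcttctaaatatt
DDX60: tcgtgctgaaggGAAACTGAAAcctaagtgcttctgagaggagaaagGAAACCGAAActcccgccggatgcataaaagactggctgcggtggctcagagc

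Antigen presentation on MHC class I, another interferon-responsive process, moved the same way. Of 21 genes tested, 18 rose and 1 fell (median 0.92). HLA-B stood at 56.5, 61.2 and 61.2 CPM in the S100A16 KD and 14.9, 14.8 and 14.2 CPM in WT (log2 2.03, adjusted p = 2.84e-05). HLA-C averaged 125 CPM in the S100A16 KD and 58.4 CPM in WT (log2 1.10). Counts of the HLA genes are uncertain because their sequences are alike and vary. B2M, the invariant light chain, averaged 192 CPM in the S100A16 KD and 89.5 CPM in WT (log2 1.10, adjusted p = 1.41e-06). The class I activator NLRC5 averaged 6.61 CPM in the S100A16 KD and 1.07 CPM in WT (log2 2.63), the immunoproteasome subunit PSMB8 25.5 against 7.71 CPM (log2 1.73) and the proteasome activator PSME1 311 against 164 CPM (log2 0.92). The 2 chains of the peptide transporter parted: TAP1 averaged 20.6 CPM in the S100A16 KD and 8.29 CPM in WT (log2 1.32, adjusted p = 1.13e-06), while TAP2 stood at 13.5, 12.8 and 15.2 CPM in the S100A16 KD and 29.7, 28.5 and 30.5 CPM in WT (log2 -1.10, adjusted p = 1.19e-10). TAP2 was the member that fell.

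NF-kB is the transcription factor family that TNF receptors activate, and several of its targets restrain it. Of 36 genes tested from 41 on the list of TNF ligands, receptors and feedback genes, 22 rose and 4 fell (median 0.55). TRAF1, an adaptor at TNF receptors, stood at 27.6, 30.1 and 28.9 CPM in the S100A16 KD and 4.51, 3.59 and 3.87 CPM in WT (log2 2.85, adjusted p = 0.000239). The ubiquitin ligase BIRC3 averaged 174 CPM in the S100A16 KD and 61.2 CPM in WT (log2 1.51, adjusted p = 0.000347), NFKB2, the precursor of p52, 119 against 47.6 CPM (log2 1.33, adjusted p = 0.000244) and the feedback inhibitor TNFAIP3, or A20, 38.4 against 12.6 CPM (log2 1.60, adjusted p = 0.00511). The deubiquitinase CYLD averaged 23.1 CPM in the S100A16 KD and 10.4 CPM in WT (log2 1.15), and the death ligand TNFSF10, or TRAIL, 3.84 against 1.03 CPM (log2 1.90). TNFRSF10D, a decoy receptor for TRAIL, went the other way, at 8.99, 10.9 and 9.14 CPM in the S100A16 KD and 26.3, 27.4 and 28.8 CPM in WT (log2 -1.50, adjusted p = 1.66e-12).

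Secreted inflammatory signals rose as well: of 33 genes tested from 41, 25 rose and 1 fell (median 1.29). Complement C3 stood at 318, 356 and 365 CPM in the S100A16 KD and 50.02, 43.9 and 43.3 CPM in WT (7.58-fold, log2 2.92, adjusted p = 3.25e-05). All S100A16 KD libraries lay more than 6-fold above every WT library. Complement factor B, CFB, which shares exon positions with C2, averaged 49.8 CPM in the S100A16 KD and 7.99 CPM in WT (log2 2.64). The neutrophil-attracting chemokines were scarce: CXCL1 averaged 10.9 CPM in the S100A16 KD and 1.45 CPM in WT (log2 2.90), CXCL2 12.7 against 2.25 CPM (log2 2.50) and CXCL8 4.86 against 0.73 CPM (log2 2.73, adjusted p = 0.00425). IL6 averaged 3.14 CPM in the S100A16 KD and 0.456 CPM in WT (log2 2.78, adjusted p = 0.00349). PTGS2, the inducible prostaglandin synthase, was the member that fell, at 22.6, 21.5 and 21.2 CPM in the S100A16 KD and 33.2, 31.5 and 30.5 CPM in WT (log2 -0.54, adjusted p = 6.02e-06). The ubiquitin-like UBD, which TNF and interferon gamma induce, averaged 17.01 CPM in the S100A16 KD and 2.05 CPM in WT (log2 3.05, adjusted p = 3.46e-05); its exons overlap GABBR1 in the annotation.

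The deepest falls were of unrelated genes. CES1, a liver-type carboxylesterase that hydrolyses esters and drugs, stood at 0.381, 0.409 and 0.296 CPM in the S100A16 KD and 17.8, 17.3 and 18.6 CPM in WT (log2 -5.62, SE 0.27, adjusted p = 7.94e-12). H19, an imprinted non-coding RNA, averaged 2.73 CPM in the S100A16 KD and 32.2 CPM in WT (log2 -3.56, adjusted p = 1.37e-06). C2orf48 averaged 1.59 CPM in the S100A16 KD and 13.1 CPM in WT (log2 -3.03), and CHCHD5, a small mitochondrial protein, 1.63 against 10.7 CPM (log2 -2.70). PBDC1 stood at 35.1, 33.4 and 33.6 CPM in the S100A16 KD and 222, 219 and 211 CPM in WT (log2 -2.68, adjusted p = 6.78e-18), and TOMM5, a subunit of the mitochondrial import pore, at 30.2, 26.2 and 26.1 CPM in the S100A16 KD and 171, 177 and 179 CPM in WT (log2 -2.68, adjusted p = 9.09e-15). RNF26, an endoplasmic reticulum ubiquitin ligase, averaged 4.74 CPM in the S100A16 KD and 26.3 CPM in WT (log2 -2.48), and REEP4, which clears endoplasmic reticulum from mitotic chromosomes, 2.58 against 11.4 CPM (log2 -2.14).

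PPP2CA and CAV1 had the smallest adjusted p of all genes named, 8.31e-19 each. PPP2CA encodes the main catalytic subunit of protein phosphatase 2A, a serine and threonine phosphatase made of a catalytic, a scaffold and a regulatory subunit. The gene lies on chromosome 5, 134194334 to 134226142, on the minus strand of GRCh38. It stood at 18.3, 18.2 and 18.2 CPM in the S100A16 KD and 170.0, 169 and 162 CPM in WT (0.109 times WT, log2 -3.20, SE 0.069). No WT library came within 8-fold of an S100A16 KD library. The annotation has 3 other genes that overlap it, among them MIR3661, so part of its counts cannot be told from theirs. The second catalytic gene, PPP2CB, averaged 65.4 CPM in the S100A16 KD and 85.6 CPM in WT (log2 -0.39, adjusted p = 1.33e-06). Per exon length, PPP2CA stood at 3.46 ± 0.0288 RPKM in the S100A16 KD and 26.99 ± 0.358 RPKM in WT, and PPP2CB at 15.6 ± 0.225 RPKM in the S100A16 KD and 17.3 ± 0.289 RPKM in WT (SD, n = 3 each). PPP2CB was thus the more abundant of the catalytic pair in the S100A16 KD and the less abundant in WT.

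Other phosphatase 2A genes moved less. Of 29 tested, 19 fell and 3 rose (median -0.28, or -0.04 with 12 lower and 6 higher by total counts alone; without WT library 2, 1 rose). The B55 regulatory subunit PPP2R2A averaged 52.1 CPM in the S100A16 KD and 89 CPM in WT (log2 -0.77), and ARPP19, which inhibits the B55 form once phosphorylated in mitosis, 68.8 against 114 CPM (log2 -0.73). PPME1, the methylesterase that removes the methyl group from the catalytic subunit, averaged 222 CPM in the S100A16 KD and 162 CPM in WT (log2 0.46, adjusted p = 1.78e-06).

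CAV1 encodes caveolin 1, the coat protein of the membrane pits called caveolae. It stood at 32.3, 33.9 and 32.1 CPM in the S100A16 KD and 206, 216 and 220.3 CPM in WT (0.153 times WT, log2 -2.71, SE 0.060). The neighbouring CAV2 averaged 51.2 CPM in the S100A16 KD and 79.3 CPM in WT (log2 -0.63), and PACSIN3, which bends membranes, 45.9 against 74.9 CPM (log2 -0.71). Of 11 caveola genes tested, 4 fell and 3 rose. By total counts alone 3 fell and 6 rose, and the median of -0.06 became 0.17. The higher share (27.3%) is near that of all genes (27.6%), and 36.4% were lower, against 24.8% of all genes. EHD4, a membrane-remodelling ATPase, averaged 23.3 CPM in the S100A16 KD and 15.98 CPM in WT (log2 0.54, adjusted p = 0.000243).

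Genes of the cell cycle fell as a group. Of 64 mitosis genes tested, 62 fell and 0 rose, 25 at least 2-fold, with a median log2 fold change of -0.87. Of 58 genes for DNA replication and the G1 to S step, 50 fell and 3 rose, 23 falling at least 2-fold (median -0.87). By total counts alone 55 mitosis genes fell and 0 rose (median -0.64), and 47 replication genes fell and 4 rose (median -0.63).

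AURKA, the kinase that matures centrosomes and builds the spindle, stood at 13.98, 13.3 and 13.6 CPM in the S100A16 KD and 71.4, 72.6 and 74.1 CPM in WT (0.187 times WT, log2 -2.42, adjusted p = 2.04e-07). MKI67, the proliferation antigen Ki-67 that coats mitotic chromosomes, had 772, 699.9 and 719 CPM in the S100A16 KD and 1826, 1821 and 1834 CPM in WT (log2 -1.32, adjusted p = 3.61e-05). Cyclin A2, CCNA2, averaged 22.4 CPM in the S100A16 KD and 67.7 CPM in WT (log2 -1.60), the CDK-activating phosphatase CDC25B 35.1 against 93.8 CPM (log2 -1.42) and the checkpoint protein BUB3 14.4 against 30.4 CPM (log2 -1.08). No library of the S100A16 KD reached a WT library in any of these.

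In the replication list, KIAA0101, now PCLAF, which binds the sliding clamp PCNA, stood at 4.52, 4.83 and 5.10 CPM in the S100A16 KD and 36.3, 32.5 and 36.3 CPM in WT (log2 -2.86, adjusted p = 1.53e-07). The helicase subunit MCM7 averaged 142 CPM in the S100A16 KD and 319.6 CPM in WT (log2 -1.17; its exons overlap AP4M1), and GINS2, another part of the replicative helicase, 8.96 against 23.1 CPM (log2 -1.37). POLD2, a subunit of DNA polymerase delta, averaged 21.1 CPM in the S100A16 KD and 42.4 CPM in WT (log2 -1.01), and CDK6 33.8 against 76.8 CPM (log2 -1.18). Cyclin D1, CCND1, rose, at 860, 879.6 and 821 CPM in the S100A16 KD and 546, 564 and 552 CPM in WT (log2 0.62, adjusted p = 3e-07).

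Promoters of these lists held cell cycle motifs. TTTGAA, a form of the cell cycle homology region bound by repressor complexes in resting cells, was in the 250 bases before the start of 28 of 55 mitosis genes (50.9%) and of 3704 of 27305 genes in all (13.6%), on either strand. TTTCCCGC, a form of the E2F site, was in 9 of 45 replication promoters (20%) and 387 of all (1.42%). These letters can overlap other motifs, as where TTTGAA shares its end with the start of the interferon element. The shares of both lists count their tested members whatever their change, so they say nothing about the fall. The windows of KIF15 (log2 -1.40), MKI67 (log2 -1.32) and CCNB2 (log2 -1.29) show the first motif and that of GINS2 the second, in capitals. They span chr3:44761694-44761793 on the plus strand, chr10:128126424-128126523 on the minus strand, chr15:59105046-59105145 on the plus strand and chr16:85688955-85689054 on the minus strand.
KIF15: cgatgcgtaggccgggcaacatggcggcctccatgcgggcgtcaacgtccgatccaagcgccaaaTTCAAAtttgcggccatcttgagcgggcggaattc
MKI67: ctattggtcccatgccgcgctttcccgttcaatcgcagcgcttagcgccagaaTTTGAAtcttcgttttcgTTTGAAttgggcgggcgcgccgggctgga
CCNB2: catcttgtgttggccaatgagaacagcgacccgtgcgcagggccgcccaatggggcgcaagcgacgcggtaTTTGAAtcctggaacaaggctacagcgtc
GINS2: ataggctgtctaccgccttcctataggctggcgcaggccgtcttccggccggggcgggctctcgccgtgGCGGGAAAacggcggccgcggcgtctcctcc

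Of 34 targets of p53, the tumour suppressor that A549 carries in wild-type form, 23 rose and 3 fell (median 0.64); without the libraries that stood apart 7 fell. CDKN1A, which encodes the CDK inhibitor p21, stood at 47.6, 55.2 and 54.9 CPM in the S100A16 KD and 27.7, 28.8 and 27.3 CPM in WT (log2 0.91, adjusted p = 0.00953). The ribonucleotide reductase subunit RRM2B averaged 55.9 CPM in the S100A16 KD and 25.02 CPM in WT (log2 1.16), CYFIP2, a WAVE complex member, 99.6 against 37.4 CPM (log2 1.42) and the repair factor XPC 276 against 215 CPM (log2 0.36). CCNG1, cyclin G1, fell, with 33.6 CPM in the S100A16 KD and 55.4 CPM in WT (log2 -0.72, adjusted p = 1.72e-06). In the BCL2 family 8 of 19 rose and 2 fell (median 0.19). The pro-apoptotic BMF averaged 6.62 CPM in the S100A16 KD and 1.06 CPM in WT (log2 2.63), and BCL2L1, whose main product BCL-XL blocks apoptosis, 108 against 66.8 CPM (log2 0.70). BOK, a pore former, averaged 5.25 CPM in the S100A16 KD and 7.65 CPM in WT (log2 -0.54).

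Splicing factors fell, by less than 2-fold for most. The series' title concerns alternative splicing, and the counts are per gene, so splicing itself was not measured here. Of 63 core spliceosome genes, 56 fell and 2 rose, 7 falling at least 2-fold (median -0.55; by total counts alone -0.31, with 42 lower and 4 higher). SNRNP200, the helicase that unwinds U4 from U6 RNA, stood at 219.9, 211 and 202 CPM in the S100A16 KD and 745, 744 and 727 CPM in WT (0.285 times WT, log2 -1.81, SE 0.072, adjusted p = 1.68e-14). SF3B3, a part of the U2 particle, averaged 46.4 CPM in the S100A16 KD and 116 CPM in WT (log2 -1.32), and ZMAT2, a tri-snRNP protein, 158 against 259 CPM (log2 -0.72). CDC40, a second-step factor, was one of the pair that rose, with 42.3 CPM in the S100A16 KD and 35.99 CPM in WT (log2 0.23, adjusted p = 0.0075).

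Of 43 hnRNP and related genes, 33 fell and 5 rose (median -0.44; by total counts alone -0.20, 24 lower and 7 higher). HNRNPU, a nuclear scaffold protein, stood at 1257, 1267 and 1212 CPM in the S100A16 KD and 2072, 2052 and 1988 CPM in WT (log2 -0.71, adjusted p = 1.01e-08), and the poly(C)-binding PCBP2 averaged 196 CPM in the S100A16 KD and 292 CPM in WT (log2 -0.57). PTBP3, a polypyrimidine tract binding protein, rose, with 49.2 CPM in the S100A16 KD and 23.4 CPM in WT (log2 1.07, adjusted p = 8.32e-11). Of 21 SR protein genes, 17 fell and 3 rose (median -0.52). RSRC1 averaged 75.5 CPM in the S100A16 KD and 127 CPM in WT (log2 -0.75), SRRM1 128 against 204 CPM (log2 -0.67) and SRSF6, which rose, 167 against 137 CPM (log2 0.29, adjusted p = 0.000482). These genes are abundant, and 59.3% of all genes above 100 CPM fell.

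Among 13 kinases of SR proteins, 5 fell and 2 rose (median -0.08); by total counts alone 1 fell and 6 rose (median 0.15). PRPF4B averaged 192 CPM in the S100A16 KD and 278 CPM in WT (log2 -0.53), while DYRK1B averaged 6.20 CPM in the S100A16 KD and 3.35 CPM in WT (log2 0.89). Of 18 exon junction complex genes, which mark spliced mRNAs, 15 fell and 0 rose (median -0.50). DDX39A, an export helicase, averaged 61.7 CPM in the S100A16 KD and 121 CPM in WT (log2 -0.97), RBM8A, the partner of MAGO proteins, 153 against 291 CPM (log2 -0.93) and the speckle protein PNN 1025 against 1647 CPM (log2 -0.68).

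Of 20 genes for nonsense-mediated decay, 10 fell (50%) and 2 rose (10%), with a median of -0.17. By total counts alone 7 fell and 8 rose (median 0.07). Their median level was 49.5 CPM. Of all genes from 10 to 50 CPM 36.8% fell and 32.8% rose, and from 50 to 100 CPM 45.5% fell and 26.3% rose. GSPT1, the release factor eRF3a that ends translation and calls in UPF1, stood at 96.9, 94.9 and 94.9 CPM in the S100A16 KD and 427, 412 and 409 CPM in WT (0.23 times WT, log2 -2.12, SE 0.071, adjusted p = 1.11e-15). The endonuclease SMG6 averaged 27.5 CPM in the S100A16 KD and 49.5 CPM in WT (log2 -0.85), and PABPC1, which coats poly(A) tails, 965 against 1601 CPM (log2 -0.73). PNRC2, a decapping cofactor, averaged 91.2 CPM in the S100A16 KD and 71.3 CPM in WT (log2 0.36). Of 21 snoRNA host genes, whose spliced RNAs are decay targets, 12 fell and 3 rose (median -0.27, or -0.03 with 7 lower and 7 higher by total counts alone). GAS5 averaged 40.9 CPM in the S100A16 KD and 61.01 CPM in WT (log2 -0.58), and SNHG14 45.4 against 30.3 CPM (log2 0.58).

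Most genes of the ribosome and of mitochondrial respiration were lower. Of 79 cytosolic ribosomal protein genes, 77 fell and 0 rose, 2 at least 2-fold (median -0.56; by total counts alone -0.32, 68 lower and 0 higher). RPS2 stood at 373, 388 and 374 CPM in the S100A16 KD and 893, 908 and 899 CPM in WT (log2 -1.25, adjusted p = 3.39e-13), RPL24 averaged 208 CPM in the S100A16 KD and 419 CPM in WT (log2 -1.01) and RPL13A 1160 against 2013 CPM (log2 -0.80). Ribosomal protein genes have many near-identical pseudogenes, so these counts are uncertain. The largest falls by CPM were of the nucleolar NCL, at 7739, 7956 and 7195 CPM in the S100A16 KD and 13448, 13845 and 12540 CPM in WT (log2 -0.80, adjusted p = 7.22e-06), and NPM1, with 3285 CPM in the S100A16 KD and 5680 CPM in WT on average (log2 -0.79). The elongation factor EEF1A1, which also has copies, averaged 2176 CPM in the S100A16 KD and 3798 CPM in WT (log2 -0.80), the initiation factor EIF3A 3372 against 5004 CPM (log2 -0.57), prothymosin PTMA 2247 against 3910 CPM (log2 -0.80) and the actin-binding thymosin TMSB10 1318 against 2910 CPM (log2 -1.14).

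Mitochondrial ribosomal proteins showed the same direction: of 78 tested, 64 fell and 2 rose (median -0.49). MRPL28 averaged 16.8 CPM in the S100A16 KD and 37.5 CPM in WT (log2 -1.16), while MRPL33 stood at 43.5, 45.7 and 48.8 CPM in the S100A16 KD and 18.3, 19.2 and 16.7 CPM in WT (log2 1.35, adjusted p = 4.8e-12). Of 77 nuclear genes of oxidative phosphorylation, 57 fell and 2 rose (median -0.39; by total counts alone -0.15, 32 lower and 8 higher). UQCRC1 of complex III averaged 60.5 CPM in the S100A16 KD and 129 CPM in WT (log2 -1.09), and COX8A of complex IV 3.12 against 9.82 CPM (log2 -1.65). All 13 mitochondrially encoded mRNAs fell (median -0.48), 8 of them by total counts alone. MT-CO1 stood at 7371, 7242 and 7177 CPM in the S100A16 KD and 11874, 11566 and 11194 CPM in WT (log2 -0.67, adjusted p = 7.25e-10). Of 38 proteasome genes, 32 fell and 0 rose (median -0.38); the 20S subunit PSMA4 averaged 260.3 CPM in the S100A16 KD and 428 CPM in WT (log2 -0.72).

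Chaperones moved in both directions. Of 39 heat shock genes, 22 fell and 8 rose (median -0.25, or -0.01 by total counts alone). Their median level was 118 CPM, and their share of falls (56.4%) is near that of all genes above 100 CPM (59.3%). The DNAJ cochaperone DNAJA2 stood at 128, 127 and 121 CPM in the S100A16 KD and 316, 319.5 and 315 CPM in WT (log2 -1.34, adjusted p = 1.68e-14), and HSP90AB1, cytosolic HSP90 beta, averaged 4212 CPM in the S100A16 KD and 6678 CPM in WT (log2 -0.67). Of 34 genes of the endoplasmic reticulum unfolded protein response, 17 rose and 9 fell (median 0.15). The lower share (26.5%) is near that of all genes (24.8%), and 50% were higher, against 27.6% of all genes. DNAJB9, an endoplasmic reticulum cochaperone, stood at 52.1, 51.9 and 51.5 CPM in the S100A16 KD and 18.99, 18.3 and 18.5 CPM in WT (log2 1.48, adjusted p = 2.79e-11), EDEM3, which trims sugars for degradation, averaged 65.95 CPM in the S100A16 KD and 32.8 CPM in WT (log2 1.01) and the transcription factor gene XBP1 157 against 91.6 CPM (log2 0.78). The folding sensor UGGT1 averaged 142 CPM in the S100A16 KD and 184 CPM in WT (log2 -0.37).

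Cholesterol synthesis is turned on by SREBP2, the product of SREBF2, and INSIG1 holds SREBP in the endoplasmic reticulum. Of 32 sterol genes tested from 33, 21 fell and 5 rose, 13 falling at least 2-fold (median -0.75; by total counts alone -0.51, 19 lower and 9 higher). SREBF2 stood at 12.6, 11.95 and 12.6 CPM in the S100A16 KD and 29.4, 29.1 and 29.5 CPM in WT (log2 -1.24, adjusted p = 1.2e-10), and INSIG1 averaged 4.58 CPM in the S100A16 KD and 22.4 CPM in WT (log2 -2.29, adjusted p = 2.05e-09). The enzymes FDPS, with 43.95 CPM in the S100A16 KD and 113 CPM in WT (log2 -1.36), and MVK, with 11.5 against 25.5 CPM (log2 -1.15), fell too. The cholesterol exporter ABCA1, an LXR target, rose, with 43.5, 43.3 and 41.9 CPM in the S100A16 KD and 14.5, 15.2 and 15.3 CPM in WT (log2 1.52, adjusted p = 0.00161), as did the sterol carrier STARD4 (log2 0.56). The SREBP-binding letters TCACNCCAC were in 1 of 24 promoters of the list (4.17%) and in 0.875% of all.

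Fatty acid genes were split, with 12 of 24 lower and 9 higher (median -0.05); by total counts alone 8 were lower and 12 higher (median 0.19). The synthase FASN stood at 75.1, 70.97 and 80.4 CPM in the S100A16 KD and 302, 293 and 296 CPM in WT (0.254 times WT, log2 -1.97, adjusted p = 3.82e-07), and the desaturase SCD at 338, 256 and 309 CPM in the S100A16 KD and 892, 882 and 901 CPM in WT (log2 -1.57, adjusted p = 0.000124). The related desaturase SCD5 rose, with 7.96 CPM in the S100A16 KD and 3.12 CPM in WT (log2 1.35, adjusted p = 5.71e-08).

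A549 cells carry a KEAP1 mutation that keeps the antioxidant factor NRF2 active. Of 39 targets, 25 fell and 8 rose (median -0.47). By total counts alone 20 fell and 11 rose (median -0.23). The targets are abundant, with a median level of 270 CPM. Their share of falls (64.1%) is near that of all genes above 100 CPM (59.3%). Compared with the hnRNPM KD, 34 were higher in the S100A16 KD and 2 lower, where 24.6% of all genes were higher. Compared with the MagoHB KD, 16 were higher and 10 lower. AKR1C2, an aldo-keto reductase with near-identical relatives, stood at 2899, 2680 and 2767 CPM in the S100A16 KD and 6242, 6258 and 6066 CPM in WT (log2 -1.15, adjusted p = 0.00148). The ferritin chain FTH1 averaged 873 CPM in the S100A16 KD and 1633 CPM in WT (log2 -0.90), the pentose phosphate enzyme TALDO1 59.7 against 106 CPM (log2 -0.83) and the carbonyl reductase CBR3 4.41 against 10.6 CPM (log2 -1.27). GPX2, a glutathione peroxidase, rose, with 8.74 CPM in the S100A16 KD and 2.00 CPM in WT (log2 2.13, adjusted p = 1.21e-09). Among 22 other scavengers of peroxide and superoxide 8 fell and 5 rose (3 without S100A16 KD library 3); by total counts alone 8 fell and 10 rose, and the median of -0.05 became 0.19. GPX4, which reduces lipid peroxides, averaged 167 CPM in the S100A16 KD and 253 CPM in WT (log2 -0.59), and catalase, CAT, 49.7 against 29.3 CPM (log2 0.76).

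Aldehyde and carbonyl enzymes divided as well, with 9 of 19 lower and 6 higher (median -0.16, or 0.07 with 5 lower and 7 higher by total counts alone). ALDH9A1 stood at 16.03, 15.9 and 15.97 CPM in the S100A16 KD and 49.2, 47.6 and 46.8 CPM in WT (log2 -1.59, adjusted p = 5.11e-14), and ALDH18A1, which makes proline precursors, averaged 8.65 CPM in the S100A16 KD and 23.1 CPM in WT (log2 -1.41). ALDH2, the mitochondrial acetaldehyde enzyme, averaged 86.7 CPM in the S100A16 KD and 56.2 CPM in WT (log2 0.63). Of 18 metallothionein and zinc transport genes, 8 fell and 5 rose (median -0.04, or 0.19 with 4 lower and 9 higher by total counts alone). The higher share (27.8%) is near that of all genes (27.6%), and 44.4% were lower, against 24.8% of all genes. The zinc exporter SLC30A6 averaged 9.08 CPM in the S100A16 KD and 14.9 CPM in WT (log2 -0.72), and SLC30A7 9.79 against 5.18 CPM (log2 0.92).

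Metabolic stress lists showed no common direction. In the ATF4 program, which amino acid shortage turns on, 14 of 39 fell and 10 rose (median 0.05). By total counts alone 6 fell and 18 rose (median 0.28). The higher share (25.6%) is near that of all genes (27.6%), and 35.9% were lower, against 24.8% of all genes. The glutamine carrier SLC1A5 averaged 71.4 CPM in the S100A16 KD and 125 CPM in WT (log2 -0.81), and the lipoprotein receptor VLDLR 19.95 against 5.10 CPM (log2 1.97). Of 28 glycolysis genes, 13 fell and 10 rose (median -0.10, or 0.14 with 9 lower and 14 higher by total counts alone). GAPDH stood at 938, 976 and 1058 CPM in the S100A16 KD and 2144, 2051 and 2068 CPM in WT (log2 -1.08, adjusted p = 2.46e-10), while the enolase ENO2 averaged 19.95 CPM in the S100A16 KD and 8.14 CPM in WT (log2 1.29). Of 27 hypoxia-inducible genes, 8 rose and 6 fell (median 0.11), or 29.6% and 22.2%, near the shares of all genes (27.6% and 24.8%). EGLN1, the prolyl hydroxylase that marks HIF for destruction, stood at 36.3, 39.04 and 38.6 CPM in the S100A16 KD and 110.1, 107 and 116 CPM in WT (log2 -1.55, adjusted p = 3.6e-13), and the histone demethylase KDM4B averaged 18.8 CPM in the S100A16 KD and 6.71 CPM in WT (log2 1.48).

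Matrix and adhesion genes rose more often than they fell. Of 42 genes for laminins, integrins and matrix proteases, 29 rose and 1 fell (median 0.88), and of 36 collagen genes and collagen enzymes 22 rose and 3 fell (median 0.53). Without the libraries that stood apart 4 genes of the first list fell, and without S100A16 KD library 2, 1 of the second. LAMB1, a laminin chain of basement membranes, stood at 787, 826 and 829 CPM in the S100A16 KD and 391, 382 and 365 CPM in WT (log2 1.10, adjusted p = 1.32e-12). LAMA3, the alpha chain of laminin 332, averaged 67.3 CPM in the S100A16 KD and 14.2 CPM in WT (log2 2.24, adjusted p = 3.31e-06), and its receptor chain ITGB4 16.8 against 6.29 CPM (log2 1.42). Basement membrane collagen COL4A1 stood at 821, 869 and 804 CPM in the S100A16 KD and 253, 246 and 257 CPM in WT (log2 1.72, adjusted p = 2.29e-11), and COL4A2, its neighbour and partner, averaged 827 CPM in the S100A16 KD and 432 CPM in WT (log2 0.94). Fibrillar COL1A1 fell, with 14.4, 12.3 and 13.7 CPM in the S100A16 KD and 26.9, 26.6 and 47.7 CPM in WT (log2 -1.33, adjusted p = 7.64e-05), WT library 3 well above the other WT libraries. MMP1, an interstitial collagenase named after its values were seen, was at 0 in all WT libraries and averaged 0.472 CPM in the S100A16 KD.

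Transforming growth factor genes rose more often than they fell: of 46 genes of TGF-beta and activin signalling 20 rose and 11 fell (median 0.45). The lower share (23.9%) is near that of all genes (24.8%), and 43.5% were higher, against 27.6% of all genes. The receptor TGFBR2 stood at 199, 197 and 212 CPM in the S100A16 KD and 63.3, 63.6 and 55.5 CPM in WT (log2 1.74, adjusted p = 9.79e-14), the coreceptor TGFBR3 averaged 7.81 CPM in the S100A16 KD and 2.12 CPM in WT (log2 1.88) and the ligand GDF11 52.6 against 23.7 CPM (log2 1.15). SMAD4, the common transcription factor of the pathway, fell, with 9.77, 9.46 and 9.20 CPM in the S100A16 KD and 24.4, 21.3 and 22.9 CPM in WT (log2 -1.27, adjusted p = 7.39e-12). Of 31 targets of YAP and TEAD, the outputs of the Hippo pathway, 18 rose and 4 fell (median 0.43). ANKRD1 stood at 355, 399 and 376 CPM in the S100A16 KD and 66.7, 68.4 and 61.6 CPM in WT (log2 2.52, adjusted p = 1.96e-05), the Hippo regulator WWC1 averaged 201 CPM in the S100A16 KD and 99.95 CPM in WT (log2 1.01) and TEAD2 3.51 against 8.00 CPM (log2 -1.19).

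Growth factor receptors had mixed changes. In the EGF receptor family and its ligands 8 of 16 rose and 4 fell (median 0.24). The lower share (25%) is near that of all genes (24.8%), and 50% were higher, against 27.6% of all genes. ERBB3 averaged 40.1 CPM in the S100A16 KD and 15.8 CPM in WT (log2 1.34, adjusted p = 8.93e-05), the ligand BTC 2.29 against 0.327 CPM (log2 2.80) and the feedback inhibitor ERRFI1 116 against 179.5 CPM (log2 -0.63). In the insulin-like growth factor list 8 of 17 rose and 3 fell (median 0.22). IGFBP1 stood at 20.9, 23.2 and 23.4 CPM in the S100A16 KD and 2.66, 3.05 and 2.30 CPM in WT (log2 3.08, adjusted p = 1.92e-09), IGF1R averaged 146 CPM in the S100A16 KD and 99.1 CPM in WT (log2 0.56) and the mRNA-binding IGF2BP2 62.7 against 91.8 CPM (log2 -0.55).

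Neither epithelial nor mesenchymal genes moved as a group. Of 34 epithelial genes, 11 rose and 6 fell, and of 31 mesenchymal genes 10 rose and 5 fell, each with a median of 0.13; without S100A16 KD library 2, 3 mesenchymal genes fell. The membrane mucin MUC1 stood at 7.75, 8.25 and 8.61 CPM in the S100A16 KD and 1.90, 1.93 and 1.84 CPM in WT (log2 2.11, adjusted p = 1.03e-10), and the desmosomal PKP2 averaged 5.31 CPM in the S100A16 KD and 1.32 CPM in WT (log2 2.00). PKP3, of the same family, averaged 5.57 CPM in the S100A16 KD and 10.6 CPM in WT (log2 -0.92). SPARC, a matrix-binding glycoprotein, stood at 330, 356 and 351 CPM in the S100A16 KD and 63.7, 64.8 and 75.2 CPM in WT (5.09-fold, log2 2.35, adjusted p = 8.47e-07), and ACTA2, smooth muscle actin, whose exons overlap FAS, averaged 52.5 CPM in the S100A16 KD and 13.2 CPM in WT (log2 1.99). Vimentin, VIM, averaged 376 CPM in the S100A16 KD and 514 CPM in WT (log2 -0.45, adjusted p = 0.00103), a call lost by total counts alone (log2 -0.22). The keratins KRT7 (229 CPM in the S100A16 KD and 524 CPM in WT, log2 -1.19) and KRT81 (209 against 476 CPM, log2 -1.19) fell, where KRT8 and KRT18 rose; 6 of 20 keratin and envelope genes fell and 4 rose, or 4 fell and 6 rose by total counts alone.

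Of 41 genes typical of liver, 16 rose and 8 fell (median 0.27). The fibrinogen beta chain FGB stood at 1501, 1382 and 1477 CPM in the S100A16 KD and 722, 707 and 599 CPM in WT (log2 1.10, adjusted p = 3.25e-05), FGA averaged 472 CPM in the S100A16 KD and 232 CPM in WT (log2 1.02), FGL1 83.6 against 25.2 CPM (log2 1.73) and vitronectin, VTN, 17.01 against 2.07 CPM (log2 3.04). CES1 was the member that fell most. Of 24 lung lineage genes 14 were tested, 8 rose and 1 fell (median 0.62), or 5 rose without WT library 3: the surfactant lipid enzyme LPCAT1 averaged 56.4 CPM in the S100A16 KD and 36.3 CPM in WT (log2 0.64) and the lipid pump ABCA3 31.1 against 19.3 CPM (log2 0.69). ETV5 was the one that fell, with 10.6 CPM in the S100A16 KD and 13.5 CPM in WT (log2 -0.35, adjusted p = 0.0128), a call lost without S100A16 KD library 2 and by total counts alone.

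Of 16 imprinted genes, 6 fell and 4 rose (median -0.01). By total counts alone 3 fell and 6 rose (median 0.23). The higher share (25%) is near that of all genes (27.6%), and 37.5% were lower, against 24.8% of all genes. Beside the fall of H19, MEG8, a non-coding RNA of the imprinted cluster on chromosome 14 that overlaps MEG3, averaged 1.52 CPM in the S100A16 KD and 0.129 CPM in WT (log2 3.52, adjusted p = 2.64e-07). In 33 immediate early genes 14 rose and 3 fell (median 0.34), with SRF averaging 17.5 CPM in the S100A16 KD and 10.6 CPM in WT (log2 0.72) and JUND 6.10 against 9.45 CPM (log2 -0.63). In 22 MAPK phosphatase and feedback genes 6 rose and 6 fell (median 0.07), or 11 rose and 2 fell by total counts alone (median 0.31). Their shares, 27.3% higher and 27.3% lower, are near those of all genes (27.6% and 24.8%), so they say nothing particular. DUSP6, the ERK phosphatase, averaged 18.4 CPM in the S100A16 KD and 7.82 CPM in WT (log2 1.23), and SPRY1, a Sprouty inhibitor, 11.99 against 5.73 CPM (log2 1.06). Of 24 replication-dependent histone genes, whose mRNAs lack poly(A) tails and are poorly captured here, 4 rose and 4 fell (median -0.01), or 6 rose and 2 fell by total counts alone (median 0.23).

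**Figure D3:**
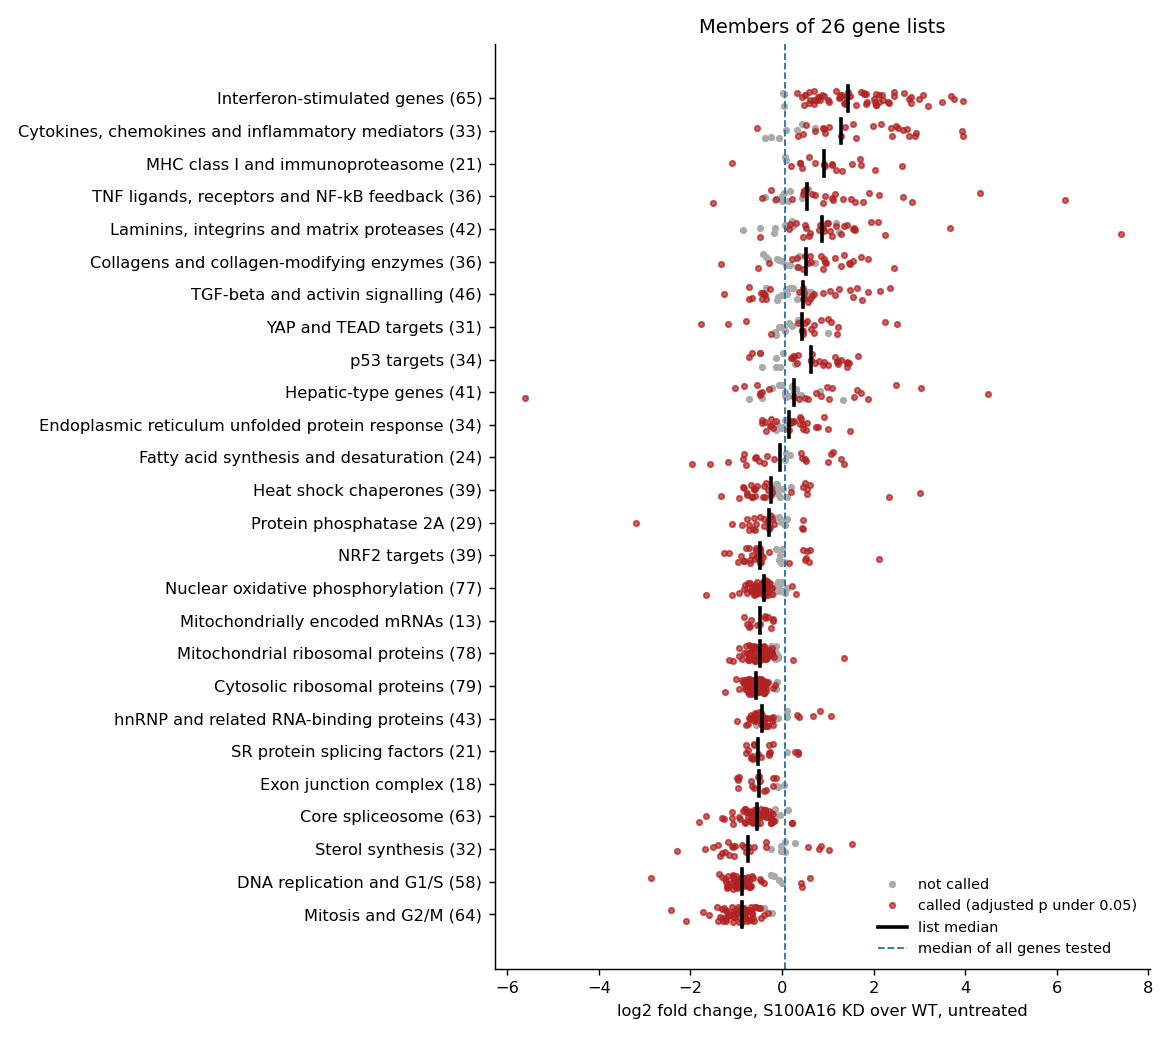
Log2 fold change of the S100A16 KD over WT, untreated, for the tested members of 26 gene lists (number tested in brackets); red points passed the test, grey did not, black bars are list medians and the dashed line is the median of all genes tested (0.06). Interferon-stimulated genes (median 1.45) lie almost wholly to the right, and mitosis genes (median -0.87) wholly to the left.

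Since no vector-only line is among the groups, the other untreated stable KD lines were set beside the S100A16 KD. They share no libraries with it, but each direct comparison uses the same S100A16 KD libraries as the comparison with WT. The S100A16 KD differed from the hnRNPM KD at 10931 genes (48.8%; 24.6% higher, 24.2% lower) and from the MagoHB KD at 10029 (44.8%; 23.2% higher, 21.7% lower). Some of the deepest falls were not at that depth in the other lines. PPP2CA averaged 18.2 CPM in the S100A16 KD, 149 CPM in the hnRNPM KD, 141 CPM in the MagoHB KD and 167 CPM in WT. The direct log2 difference was -3.03 from the hnRNPM KD (adjusted p = 1.33e-18) and -2.95 from the MagoHB KD (adjusted p = 4.51e-18). KIAA0101 averaged 4.82 CPM in the S100A16 KD, 35.3 CPM in the hnRNPM KD, 41.2 CPM in the MagoHB KD and 35.03 CPM in WT, and was lower than in both lines (log2 -2.87 and -3.09). GSPT1 averaged 95.5 CPM in the S100A16 KD, 409 CPM in the hnRNPM KD, 282 CPM in the MagoHB KD and 416 CPM in WT. TOMM5 averaged 27.5 CPM in the S100A16 KD, 127 CPM in the hnRNPM KD, 140.1 CPM in the MagoHB KD and 176 CPM in WT. SNRNP200 averaged 211 CPM in the S100A16 KD, 528 CPM in the hnRNPM KD, 518 CPM in the MagoHB KD and 739 CPM in WT. All 3 were lower in the S100A16 KD than in either line, with log2 differences from -2.35 to -1.30.

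Other large changes were present in the other lines too. CES1 averaged 0.362 CPM in the S100A16 KD, 0.726 CPM in the hnRNPM KD, 1.13 CPM in the MagoHB KD and 17.9 CPM in WT. C2orf48 averaged 1.59 CPM in the S100A16 KD, 2.02 CPM in the hnRNPM KD, 2.42 CPM in the MagoHB KD and 13.1 CPM in WT. SPARC averaged 345 CPM in the S100A16 KD, 338 CPM in the hnRNPM KD, 192 CPM in the MagoHB KD and 67.9 CPM in WT, ANKRD1 377, 596, 224 and 65.6 CPM in the same order, and TRAF1 28.9, 33.7, 32.7 and 3.99 CPM. Their differences between the S100A16 KD and the hnRNPM KD, 0.03 for SPARC (adjusted p = 0.921), -0.66 for ANKRD1 (adjusted p = 0.0861) and -0.22 for TRAF1 (adjusted p = 0.69), did not pass the test, which does not show that they are equal. These rest on single libraries: without hnRNPM KD library 3 the difference in TRAF1 was 0.19, and without MagoHB KD library 2 the difference of the S100A16 KD from the MagoHB KD in TRAF1 was 0.65 (adjusted p = 0.076), against -0.19 with it (adjusted p = 0.753). In ANKRD1 the difference from the hnRNPM KD passed the test once S100A16 KD library 1, hnRNPM KD library 3 and MagoHB KD library 2, which stood apart, were left out (-0.54, adjusted p = 0.00282). Compared with the MagoHB KD, SPARC was higher in the S100A16 KD by 0.85 on the log2 scale (adjusted p = 0.0042). ANKRD1 was higher by 0.75, which did not pass the test (adjusted p = 0.0583). Without those 3 libraries this difference in ANKRD1 was larger and passed (adjusted p = 2.87e-06). SPARC was thus not at one level across the stable lines, and for ANKRD1 the call depended on the libraries kept. What part of these changes from WT all stable lines share was not tested.

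Interferon genes were not at one level across the lines. XAF1 averaged 41.8 CPM in the S100A16 KD, 2.76 CPM in the hnRNPM KD, 14.8 CPM in the MagoHB KD and 2.69 CPM in WT (S100A16 KD minus hnRNPM KD 3.93, adjusted p = 9.31e-08; minus MagoHB KD 1.48, adjusted p = 0.000287). TNFSF14, which is on the TNF list and not on the interferon list, averaged 63.1 CPM in the S100A16 KD and 0.867 CPM in WT. It averaged 5.33 CPM in the hnRNPM KD and 2.95 CPM in the MagoHB KD. The interferon gene RSAD2 averaged 27.6 CPM in the S100A16 KD, 4.95 CPM in the hnRNPM KD and 33.1 CPM in the MagoHB KD. It was among those not called higher than in the MagoHB KD (S100A16 KD minus MagoHB KD -0.27, adjusted p = 0.592). Of the 65 genes of the list, 59 were higher and 1 lower in the S100A16 KD than in the hnRNPM KD, and 42 higher and 3 lower than in the MagoHB KD. Of 64 mitosis genes, 16 were lower and 7 higher than in the hnRNPM KD, where the lower share is near that of all genes (24.2%). Against the MagoHB KD 23 were lower and 2 higher, where 21.7% of all genes were lower. All 79 ribosomal protein genes were lower than in the MagoHB KD and 77 lower than in the hnRNPM KD. Lists that rose against WT did not all rise against the hnRNPM KD. Of 42 laminin, integrin and protease genes, 11 were higher and 16 lower than in the hnRNPM KD (18 and 3 against the MagoHB KD). For 36 collagen genes these counts were 11 and 14 (11 and 6), and for 36 TNF and NF-kB genes 9 and 9 (12 and 5).

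**Figure D4:**
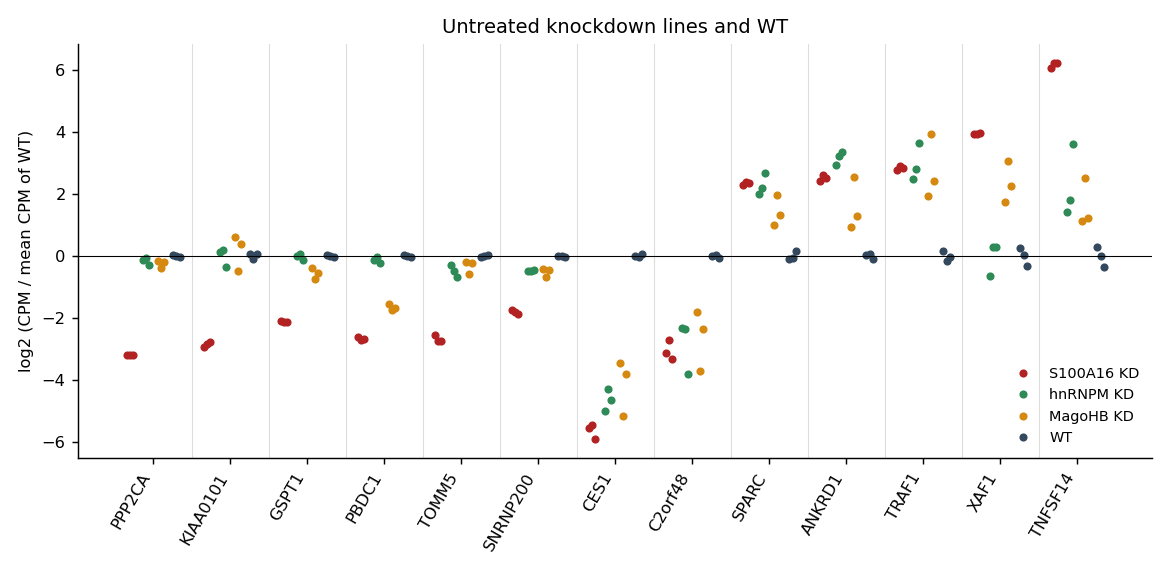
Log2 of CPM over the mean CPM of WT for 13 genes in each library of the untreated S100A16 KD (red), hnRNPM KD (green), MagoHB KD (orange) and WT (dark). PPP2CA, KIAA0101 and SNRNP200 are lowest in the S100A16 KD, TRAF1 is raised in all 3 KD lines, and TNFSF14 is highest in the S100A16 KD.

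The knockdown was also measured with H2O2, in 3 S100A16 KD and 3 WT libraries that the untreated comparison does not share. Under H2O2, 11759 genes differed between the S100A16 KD and WT (52.5%), 6241 higher (27.9%) and 5518 lower (24.7%). Of these calls 9807 were also called untreated in the same direction, which is 83.7% of the untreated and 83.4% of the H2O2 calls, and 9 were called in opposite directions. Of the changes of at least 2-fold, 2384 were shared in direction, or 71.6% of 3330 untreated and 68.9% of 3460 under H2O2, where 10.5% of all genes were higher and 4.91% lower by that size. Across 11867 genes of at least 5 CPM, Pearson's r between the log2 fold changes was 0.951, as a description across genes, which are not independent replicates.

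The levels of 5 genes named above are set beside those of the second set of libraries. PPP2CA had 19.8, 20.3 and 19.9 CPM in the S100A16 KD under H2O2 and 166, 161 and 164 CPM in WT under H2O2. CAV1 averaged 32.2 CPM in the S100A16 KD and 229 CPM in WT under H2O2, XAF1 41.4 against 3.38 CPM, TNFSF14 53.4 against 0.924 CPM and AURKA 14.7 against 72.3 CPM. Of the interferon-stimulated genes 61 of 65 were higher and 0 lower under H2O2 (median 1.48), and 59 of 64 mitosis genes were lower and 0 higher (median -0.87).

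The interaction test asked whether the difference itself changed with H2O2. It did for 21 genes (0.0938%), upward for 4 (0.0179%) and downward for 17 (0.0760%). A raw p under 0.05 was found for 1134 of 22382 genes, close to the share that this threshold passes where nothing differs. The number called depended on the fit: 256 with these groups fitted alone and 190 without the 3 libraries that stood apart. Of 33 immediate early genes, 9 passed the interaction test downward and 0 upward in the main fit. Untreated, 14 of them were higher and 3 lower in the S100A16 KD, and under H2O2 6 were higher and 14 lower. NR4A2, an orphan nuclear receptor, averaged 6.74 CPM in the S100A16 KD and 3.86 CPM in WT untreated (log2 0.80), and 5.46 CPM in the S100A16 KD and 8.78 CPM in WT under H2O2 (log2 -0.69). CLK1, a kinase of SR proteins, averaged 63.9 CPM in the S100A16 KD and 80.9 CPM in WT untreated (log2 -0.34), and 71.4 CPM in the S100A16 KD and 47.2 CPM in WT under H2O2 (log2 0.60). In both genes the S100A16 KD lay on one side of WT untreated and on the other under H2O2. The untreated difference in CLK1 was -0.11 by total counts alone (adjusted p = 0.193), and the interaction in NR4A2 missed the threshold when any of 4 libraries was left out (adjusted p 0.0578 to 0.0648).

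**Figure D5:**
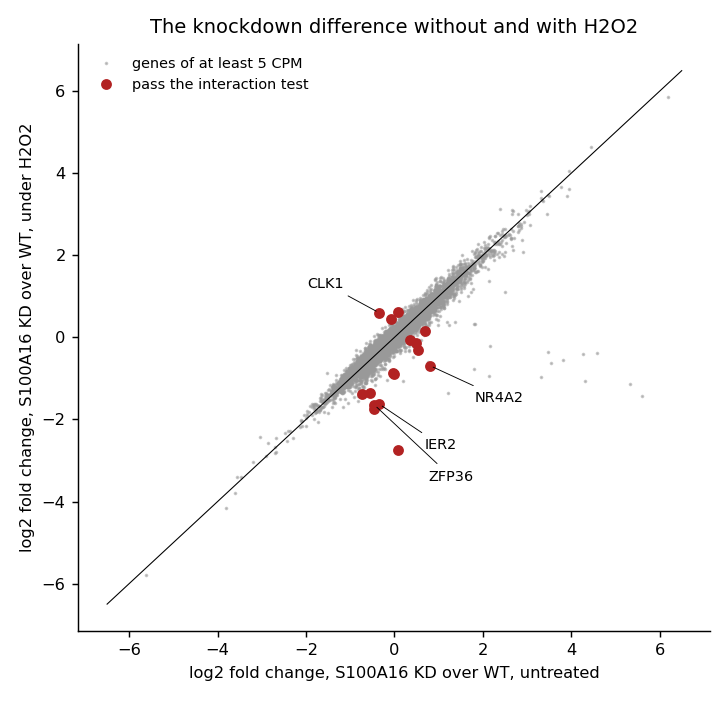
Log2 fold change of the S100A16 KD over WT, untreated (x axis) and under H2O2 (y axis), for genes of at least 5 CPM in the higher untreated group; red points passed the interaction test and the line marks equal values. Most genes lie along the line (r 0.951); the 14 grey points with x above 1.5 and y under 0.5 are mostly short RNA and ribosomal RNA genes that were 7.05 to 36.2 times as high in S100A16 KD library 1 as in either other untreated S100A16 KD library.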

How the data were processed

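Poly(A)-selected RNA of A549 cells was sequenced in 18 libraries, of which the 3 untreated S100A16 KD and 3 untreated WT libraries carry the main comparison. The authors deposited a table of whole-number read counts and a table of RPKM, each per gene and library, per the file headers. The submitters' processing notes name HISAT2 2.2.1, StringTie 2.1.4, DESeq2 1.32.0, FastQC 0.11.9, SAMtools 1.15.1 and GRCh38. Which program counted reads, with which annotation and strand setting, was not stated. The deposited RPKM equalled counts per exon length and total within a tolerance of 0.001 for 100% of 531539 values above 0. Odd counts were rare among low counts, 18.6% to 22% of those from 1 to 19, so counts halved were tried as an alternative.

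The test on counts was that of edgeR 4.0.16 in R 4.3.3, with limma 3.58.1: TMM scaling, filterByExpr, a robust quasi-likelihood F test over all 18 libraries with 1 mean per group, whose groups share the estimate of the spread, and Benjamini-Hochberg adjustment over 22382 genes. Genes were called at an adjusted p under 0.05. CPM values are TMM-scaled, apart from the library sums of short structured RNAs, and shown with no test of their own. The fit was also run on simulated counts, drawn with its own spread and with a small part of the genes changed in either direction. That run cannot test the premise that most genes stay level. Totals over genes of 39523692 to 48482897 per library limit precision by little for abundant genes. Some named genes were under 1 CPM in a group, such as MEG8 and NMNAT2 in WT and CES1 in the S100A16 KD. Their counts there were few, which limits the precision of their fold changes. Nothing in the labels says that replicates came from separate cultures beyond the word biological, so p-values measure the spread between these libraries. Alternatives were DESeq2 1.42.0, other scalings, filters, samples in the fit, a replicate block and leaving out libraries. Per-sample columns left unused numbered 0.

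Named genes were S100A16 and its family, the 15 highest and 15 lowest log2 fold changes and the 8 largest rises and falls in CPM among called genes of at least 5 CPM whose groups did not overlap, and from each of 53 lists up to 3 called members of smallest adjusted p in the commoner direction and 1 in the other, and genes called both untreated and for the interaction. Short structured RNAs, mitochondrial genes and pseudogenes were left out of the ranking by size. The lists held 1768 entries, of which 1759 matched the table. The members and lists were chosen with earlier results of these data known. Chosen after their values were seen were C3, HLA-B, HLA-C, B2M, TAP1, IFIT3, IFIH1, DDX58, CFB, CXCL1, CXCL8, IL6, TRAF1, BIRC3, TNFAIP3, NFKB2, PPP2CB, MKI67, CDKN1A, ABCA1, SCD, ANKRD1, LAMA3, CD68, GBP1, DDX60, KIF15, CCNB2, GINS2, MCM7 and MMP1, and the promoter windows shown. Of 44016 features, 28725 matched GENCODE 29. Promoter sequences are RefSeq's. Some members that the rule names are not reported here.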

Additional observations from a re-analysis of the deposited data

Results flagged for a closer look

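The difference between the S100A16 KD and WT depended on H2O2, by the interaction test (edgeR, adjusted over all genes), for 10 genes that were also called untreated. Each value is the log2 difference under H2O2 minus that untreated. CLK1 had an interaction of 0.94 (adjusted p = 4.67e-06), from -0.34 untreated and 0.60 under H2O2. IER2, an immediate early gene that overlaps another annotated gene, had -1.28 (adjusted p = 9.48e-05), with 11.4 CPM in the S100A16 KD and 35.2 CPM in WT under H2O2. ZFP36, which destabilises cytokine mRNAs, had -1.19 (adjusted p = 0.0023), with 10.1 CPM in the S100A16 KD and 31.4 CPM in WT under H2O2. KLF10, a TGF-beta induced zinc finger gene, had -0.84 and PTGS2 -0.82 (adjusted p = 0.000892 each). PTGS2 stood at 20.1, 22.1 and 21.2 CPM in the S100A16 KD and 56.5, 51.8 and 54.2 CPM in WT under H2O2, so its groups lay farther apart than untreated. NR4A2 had -1.49 (adjusted p = 0.00983), LIF, a cytokine, -0.44 (adjusted p = 0.0194), RHOB, a small GTPase, -0.64 (adjusted p = 0.0291) and SOCS3, an inhibitor of cytokine signalling, -0.54 (adjusted p = 0.0484). EEF1A1P13, a processed pseudogene whose reads can come from EEF1A1, had -0.65 (adjusted p = 0.00281).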

How the results depend on the processing

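Across 15 alternatives and 263 named genes, 3928 of 3942 gene values kept their direction and side of the threshold. Of the rest 11 lost a call, 3 gained one and 0 reversed. Most named genes were picked from these data for a small adjusted p or a large change. Few losses were therefore likely beforehand, and the count does not describe the other genes. S100A16 stayed between -3.88 and -3.58 on the log2 scale. Over all genes tested, total counts alone took the lower calls from 5545 to 3231, because all values moved up by 0.24. Those of at least 2-fold went from 872 to 406. Leaving out 1 library at a time gave 10523 to 10658 calls untreated. The interaction counted 21 genes, and 34 with DESeq2, 45 with no filter, 256 with these groups fitted alone and 190 without the 3 libraries that stood apart (chosen after seeing the data); leaving out 1 library gave 13 to 17. The cause was not tested. Against the hnRNPM KD, SPARC (0.03) ran from -0.12 to 0.25 without 1 hnRNPM KD library at a time (-0.03 without library 2), and TRAF1 (-0.22) from -0.46 to 0.19, and was 0.21 without the 3 libraries. Against the MagoHB KD, TRAF1 (-0.19) ran from -0.52 to 0.65 without 1 MagoHB KD library at a time, and was 0.65 without the 3 libraries. Without those 3, 12541 genes were called untreated, 62 interferon-stimulated genes were higher and 64 mitosis genes lower. Same-numbered libraries did not deviate together (correlations 0.00258, -0.0163 and 0.0165), and the replicate block gave 11553 calls untreated and 20 for the interaction. The calls of SOCS3, RHOB and LIF for the interaction were lost in most fits without 1 library. Counts cannot separate isoforms or near-identical copies.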

Other observations

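Classes of gene differed in their share of calls. Of 1144 processed pseudogenes tested, copies whose reads can come from their parent genes, 5.77% were higher and 23.8% lower in the S100A16 KD (median -0.36), where 31.7% of 14105 protein-coding genes were higher and 30% lower. Of 305 lincRNAs 29.2% were higher and 9.18% lower, and of 563 antisense genes 27.9% and 12.6%, but these classes are scarce and scarce genes rose more often than they fell. Among genes of at least 5 CPM in the higher group, 21.6% of 676 genes on chromosome 19 were higher and 46.3% lower (median -0.17), where the other chromosomes with at least 100 such genes had 26.2% to 39.2% higher and 32.7% to 43.2% lower.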
